A study of Mus musculus with 16 samples.

Results

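The expression of 10 genes of the neutrophil was followed through the gastrocnemius of 16 mice: S100a8, S100a9, Ngp, Camp, Ltf, Mmp8, Fpr1, Fpr2, Csf3r and Retnlg. They are 10 of the 21923 genes in the deposited table and were chosen by symbol. The choice was made with the CAC and NOR levels in view, in particular the high Fpr1 level in CAC, so the CAC vs. NOR values of all 10 genes are a description and carry no test. The other comparisons were tested across all genes, except for Fpr1 against the CAC or NOR mice, whose values had entered the choice.

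Gastrocnemius, a muscle of the calf, was taken on day 30 from 4 groups of 4 mice, each with 2 mice labelled C57BL/6 (replicates 1 and 2) and 2 labelled BALB/c (replicates 3 and 4, written BABL/c in the strain label). NOR mice carried no tumor and received PBS. The 3 other groups carried a tumor under the skin of the flank, grown from LLC lung carcinoma cells in C57BL/6 mice or from CT26 colon carcinoma cells in BALB/c mice. CAC mice received PBS daily from day 9, AM mice received amiloride at 2 mg/kg daily from day 9 by intraperitoneal injection, and KD mice carried tumor cells with a knock-down of Rab27 by shRNA against Rab27a and Rab27b and received PBS. Amiloride is a diuretic that blocks sodium transport, and Rab27 proteins take part in exosome secretion. The mice were bought as adults of 6 to 8 weeks and were older when the muscle was taken. The methods call all of them male, while the scheme of the model names male and female BALB/c mice, and the sex of each mouse is not given. The knock-down concerns the tumor and not the host. Strain and tumor line changed together in the 3 tumor groups, so they cannot be told apart there.

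Neutrophils are short-lived white blood cells that are made in the bone marrow, circulate in blood and enter tissue within hours of an alarm signal. Their granule proteins are made in steps during maturation. Primary granules, with Mpo and Elane, are filled in promyelocytes, secondary granules, with Ltf, Camp and Ngp, in myelocytes, and the receptors for formyl peptides appear on late, mature cells. Resting skeletal muscle holds few of these cells.

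Levels are given in CPM, the counts scaled to a common library size with TMM normalisation factors. The 16 libraries held 35913190 to 61032708 counts. Creatine kinase transcripts of muscle (Ckm) stood at 12956 to 34588 CPM in every library. The sum of 8 skeletal muscle genes was 124290 to 177815 CPM in NOR and 56101 to 129522 CPM in CAC, lowest in CAC replicate 3. All 8 had negative log2 fold changes in CAC vs. NOR (median −0.44) and none passed by edgeR, and their part in the results below was not tested. A set of libraries stood apart in a way that did not follow their labels, which was noticed after the data were seen. Nnt, a mitochondrial transhydrogenase gene that carries a deletion in the C57BL/6J substrain, read 112 CPM in CAC replicate 4, 89.2 in AM replicate 3, 60.7 in AM replicate 1 and 44.0 in KD replicate 1, against 5.73 to 21.5 in the other 12 libraries. The table holds a second Nnt identifier (ENSMUSG00000116207), and there CAC replicate 4 (202), AM replicate 3 (115) and AM replicate 1 (98.1) were again the highest, but KD replicate 1 (50.7) lay below KD replicate 2 (55.5) and KD replicate 3 (60.3), so its place in the set rests on the first identifier. Among these 4 libraries, 2 were labelled C57BL/6 and 2 BALB/c. The Y-linked gene Ddx3y had no count in KD replicate 3 and read 46.8 to 89.7 CPM in the other 15 libraries. The strain is therefore called the labelled strain below, and the comparisons and relations that include the 4 libraries were also computed without them.

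The 10 genes lie on 5 chromosomes and all are protein-coding (GENCODE M21, GRCm38, matched by gene identifier). S100a8 (chr3:90668978-90670035) and S100a9 (chr3:90692632-90695721) are neighbours with a gap of 22.6 kb. Fpr1 (chr17:17876471-17883940) and Fpr2 (chr17:17887824-17893952) are 3.88 kb apart. Ngp (chr9:110419747-110423012), Camp (chr9:109847379-109849617) and Ltf (chr9:111019271-111042767) share a stretch of chromosome 9, with 570.1 kb between Ngp and Camp and 596.3 kb between Ngp and Ltf. Mmp8 (chr9:7558456-7568485) is far from them on the same chromosome. Csf3r (chr4:126024550-126044440) and Retnlg (chr16:48872621-48874496) stand alone. In their transcripts, 43.0% of the 31-base words of Fpr2 also occur in the annotated gene Gm5966 and 23.1% of those of Csf3r in AC105061.2, so the counts of these 2 genes are uncertain where reads could be split. The share was 5.51% for Retnlg (with Retnla), 1.55% for Fpr1 (with Fpr3) and 0 for the 6 others. Strandedness of the counting is not given in the sources used here, so reads from overlapping antisense transcripts could not be told apart.

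The upstream sequences of 4 genes are shown as examples: Ngp and Ltf, which moved together over the mice, Mmp8, and Fpr1. They are RefSeq sequences (GRCm38.p6), 5′ to 3′ on the strand of the gene, and end before the first base of the gene in both RefSeq and GENCODE. Capitals mark 2 words found by a search on both strands, TTGCNNAA (a word of the C/EBP type) and AGGAAGT (a word of the PU.1 type). The word in Ltf and the PU.1-type word in Mmp8 lie on the opposite strand and so appear as their reverse complements. C/EBP factors and PU.1 are transcription factors of the myeloid lineage.
Ngp (chr9:110419558-110419746, plus strand): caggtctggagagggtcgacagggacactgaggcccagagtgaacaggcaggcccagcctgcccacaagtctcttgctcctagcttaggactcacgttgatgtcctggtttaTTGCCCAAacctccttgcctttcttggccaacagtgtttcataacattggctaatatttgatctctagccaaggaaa
Ltf (chr9:111019042-111019270, plus strand): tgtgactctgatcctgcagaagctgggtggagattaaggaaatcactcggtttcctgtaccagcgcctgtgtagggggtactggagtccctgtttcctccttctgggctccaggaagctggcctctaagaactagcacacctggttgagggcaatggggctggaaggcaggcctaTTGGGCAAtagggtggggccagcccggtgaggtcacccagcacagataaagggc
Mmp8 (chr9:7558179-7558428, plus strand): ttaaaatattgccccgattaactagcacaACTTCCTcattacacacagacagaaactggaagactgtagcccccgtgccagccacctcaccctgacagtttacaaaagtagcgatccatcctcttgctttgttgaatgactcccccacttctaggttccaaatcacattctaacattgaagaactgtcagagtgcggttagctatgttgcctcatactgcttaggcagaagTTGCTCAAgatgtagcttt
Fpr1 (chr17:17883941-17884189, minus strand): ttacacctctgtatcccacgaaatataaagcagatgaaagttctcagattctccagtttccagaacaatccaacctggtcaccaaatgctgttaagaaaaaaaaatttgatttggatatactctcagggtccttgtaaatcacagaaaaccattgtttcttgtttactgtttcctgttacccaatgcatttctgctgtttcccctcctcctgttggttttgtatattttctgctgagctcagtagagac

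Over the whole RefSeq window, from 250 bases before to 50 after the start, the C/EBP-type word occurred in 5 of the 10 genes (Ngp, Ltf, Mmp8, S100a9 and Retnlg), and in 10.8% of the 32851 promoters of the table. Ngp held it at positions −138 and −11 from the start, Ltf at −75 and Mmp8 at −19. The PU.1-type word occurred in 2 of the 10 (S100a8 at −172 and Mmp8 at −221), and in 9.35% of all promoters. The words do not overlap each other, and a match describes letters only. The Fpr1 window held neither word, nor did those of Fpr2, Csf3r and Camp.

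S100a8 and S100a9 encode the subunits of calprotectin, the most abundant protein of the neutrophil cytosol, which binds calcium and zinc and acts as an alarm signal. S100a8 read 1.5, 0.886, 3.81 and 4.61 CPM in the 4 NOR mice and 33.5, 23.3, 43.2 and 69.3 CPM in the CAC mice. Every CAC mouse stood above every NOR mouse, with means of 42.3 ± 19.8 and 2.70 ± 1.79 CPM (SD, n = 4 each) and a log2 fold change of 3.97 ± 0.58 (SE). In AM mice S100a8 read 10.6, 32.7, 29.9 and 2.21 CPM, and in KD mice 48.7, 31.1, 3.24 and 53.2 CPM. Thus 3 of the 4 mice in AM and in KD stood above all NOR mice, while AM replicate 4 and KD replicate 3 lay inside the NOR range.

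S100a9 had the highest group mean of the 10 genes in all 4 groups, in CPM and per length (FPKM). It read 3.47, 1.74, 6.25 and 13.6 CPM in NOR and 70.1, 49.6, 71.9 and 95.8 CPM in CAC, with a log2 fold change of 3.52 ± 0.59 (SE). The AM mice read 26.3, 61.4, 76.0 and 5.54 CPM and the KD mice 137, 57.3, 6.05 and 93.5 CPM. The same AM replicate 4 and KD replicate 3 were low. In FPKM, S100a9 stood at 1.3 to 2.79 times S100a8 in all 16 libraries, so the balance of the calprotectin subunits varied far less than their level.

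**Figure D1:**
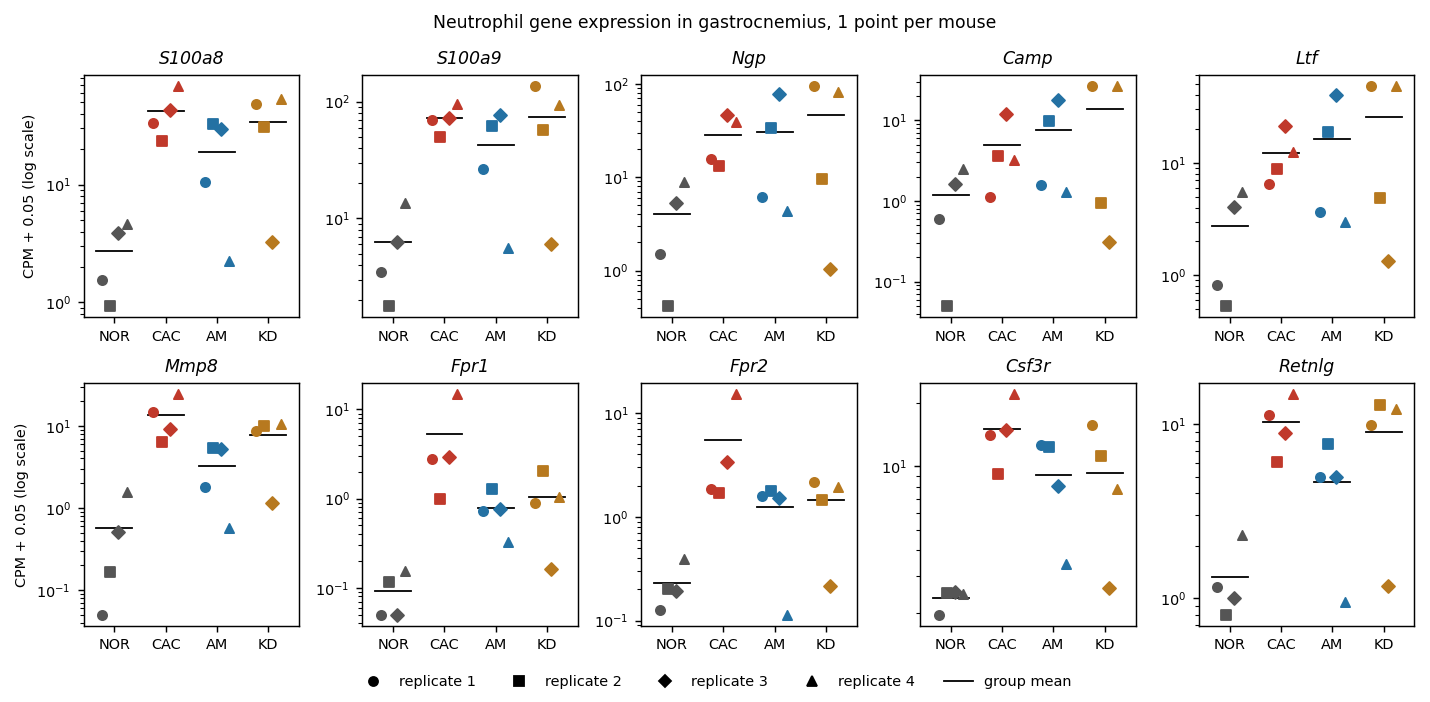
Expression of the 10 neutrophil genes in each mouse, in CPM plus 0.05 on a log axis, by group. Points are mice, their shape gives the replicate number and lines mark group means. AM replicate 4 (triangle) and KD replicate 3 (diamond) lie inside the NOR range for S100a8, S100a9, Ngp, Camp, Ltf, Mmp8 and Retnlg, and for Ngp, Ltf and Camp some other tumor-bearing mice lie there too.

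Ngp, Camp and Ltf encode proteins of the secondary granules: neutrophilic granule protein, the cathelicidin antimicrobial peptide, and the iron-binding lactoferrin. Ngp read 1.45, 0.368, 5.18 and 8.73 CPM in NOR and 15.6, 13.3, 45.8 and 39.4 CPM in CAC, with a log2 fold change of 2.87 ± 0.87 (SE) and no overlap. It read 6.04, 33.2, 78.2 and 4.31 CPM in AM and 95.8, 9.48, 0.986 and 81.2 CPM in KD. The highest 3 mice of all were therefore KD replicates 1 and 4 and AM replicate 3, and none of them was a CAC mouse. KD mice spanned 97.2-fold from the lowest to the highest, against 3.45-fold in CAC.

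Ltf followed the same course. Its 4 NOR mice read 0.777, 0.485, 4.01 and 5.45 CPM and its CAC mice 6.49, 8.75, 21.0 and 12.4 CPM, with a log2 fold change of 2.20 ± 0.76 (SE). In AM it read 3.61, 18.9, 39.8 and 2.94 CPM, and in KD 48.0, 4.82, 1.28 and 48.5 CPM. Again KD replicates 1 and 4 and AM replicate 3 were the highest of the 16 mice.

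Camp was the only one of the 10 genes whose CAC and NOR mice overlapped. It read 0.544, 0, 1.59 and 2.42 CPM in NOR, where the count of 0 in replicate 2 allows up to 0.0501 CPM (3 counts, counting error only), and 1.08, 3.54, 12.0 and 3.13 CPM in CAC. Its log2 fold change was 2.14 ± 1.16 (SE), the lowest of the 10. The AM mice read 1.5, 9.82, 17.8 and 1.22 CPM and the KD mice 26.6, 0.894, 0.261 and 26.9 CPM.

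Mmp8, the neutrophil collagenase, is stored in granules and cleaves fibrillar collagen. It read 0, 0.117, 0.464 and 1.49 CPM in NOR, where the count of 0 in replicate 1 allows up to 0.0777 CPM. In CAC it read 14.7, 6.34, 9.21 and 24.2 CPM, with a log2 fold change of 4.69 ± 1.04 (SE) and every CAC mouse higher. In AM it read 1.77, 5.31, 5.12 and 0.515 CPM, and in KD 8.68, 10.0, 1.10 and 10.5 CPM. All 4 AM mice were below all 4 CAC mice, which held for no other of the 10 genes, while 3 of the 4 KD mice lay within the CAC range.

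Fpr1 and Fpr2 are receptors for formylated peptides that bacteria and damaged mitochondria release, and they guide neutrophils toward them. Fpr1 was nearly absent from NOR muscle, with 0, 4, 0 and 6 counts, or 0, 0.0668, 0 and 0.103 CPM. The counts of 0 allow up to 0.0777 CPM in replicate 1 and 0.0605 CPM in replicate 3. In CAC it read 2.75, 0.940, 2.87 and 14.7 CPM (120, 42, 155 and 933 counts), with a log2 fold change of 6.78 ± 1.20 (SE), the largest of the 10. CAC replicate 4 carried most of the CAC mean of 5.33 ± 6.34 CPM (SD, n = 4), and the value without it was 5.51.

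In AM mice Fpr1 read 0.686, 1.24, 0.717 and 0.279 CPM, and in KD mice 0.833, 1.99, 0.112 and 0.991 CPM. Each AM and KD mouse was above the 4 NOR mice in CPM. KD replicate 3 (0.112 CPM) and NOR replicate 4 (0.103 CPM) held 6 counts each, so those 2 differ by library scaling only. Of the CAC mice, only replicate 2 stood within the AM and KD ranges. The log2 difference from CAC, given without a test, was −2.86 ± 0.85 (SE) in AM and −2.44 ± 0.99 (SE) in KD, without CAC replicate 4 it was −1.59 and −1.16, and without the 4 libraries that stand apart in Nnt −1.56 and −1.10.

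Fpr2 read 0.0777, 0.150, 0.141 and 0.344 CPM in NOR and 1.79, 1.63, 3.31 and 15.1 CPM in CAC, with a log2 fold change of 4.90 ± 0.90 (SE). As for Fpr1, CAC replicate 4 stood far above the others, and the value without it was 3.63. The AM mice read 1.53, 1.72, 1.45 and 0.0644 CPM and the KD mice 2.11, 1.42, 0.167 and 1.87 CPM. AM replicate 4, with 3 counts of Fpr2, lay below every NOR mouse. The 5 further genes of the family searched, Fpr3, Fpr-rs3, Fpr-rs4, Fpr-rs6 and Fpr-rs7, were at or near 0, with no count in 15 of the 16 libraries and 2 counts of Fpr3 in the other.

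Csf3r is the receptor for granulocyte colony-stimulating factor, which drives neutrophil production. It was the steadiest of the 10 genes in NOR, at 1.92, 2.44, 2.46 and 2.41 CPM, and read 14.1, 9.13, 14.9 and 22.0 CPM in CAC, with a log2 fold change of 2.70 ± 0.26 (SE). In AM it read 12.5, 12.3, 8.05 and 3.39 CPM and in KD 15.6, 11.1, 2.59 and 7.74 CPM. Each of the 12 tumor-bearing mice was above every NOR mouse, the lowest again being KD replicate 3 and AM replicate 4. Retnlg encodes a resistin-like protein made by neutrophils and bone marrow. It read 1.11, 0.752, 0.948 and 2.27 CPM in NOR and 11.2, 6.04, 8.80 and 14.8 CPM in CAC, with a log2 fold change of 3.01 ± 0.42 (SE). The AM mice read 4.89, 7.65, 4.93 and 0.901 CPM and the KD mice 9.87, 12.9, 1.12 and 12.2 CPM, with AM replicate 4 and KD replicate 3 inside the NOR range.

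Over the 10 genes, the log2 fold changes in CAC vs. NOR were all positive, with a median of 3.26 against 0.01 over all 14666 genes tested. In 9 of the 10 the groups did not overlap, where 12.5% of all genes were higher in CAC without overlap. All 10 passed the filter on low counts, Fpr1 through its CAC libraries only. Single NOR and CAC mice moved several of these values by more than 1.5-fold. Without NOR replicate 4 the log2 fold change was 6.08 for Mmp8, 7.56 for Fpr1, 4.23 for S100a9, 3.62 for Ngp, 2.80 for Ltf and 2.80 for Camp, and without CAC replicate 3 it was 1.18 for Camp. With the limits used throughout (FDR up to 0.05 and a change of 1.5-fold or more), 633 of all genes were higher (4.32%) and 753 lower (5.13%), or 959 and 619 when libraries were scaled to total counts alone, which moved the median log2 fold change of all genes by 0.13. The choice of the genes used this contrast, so these counts describe the choice. In bulk muscle, more cells of a type and more RNA per cell cannot be told apart.

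**Figure D2:**
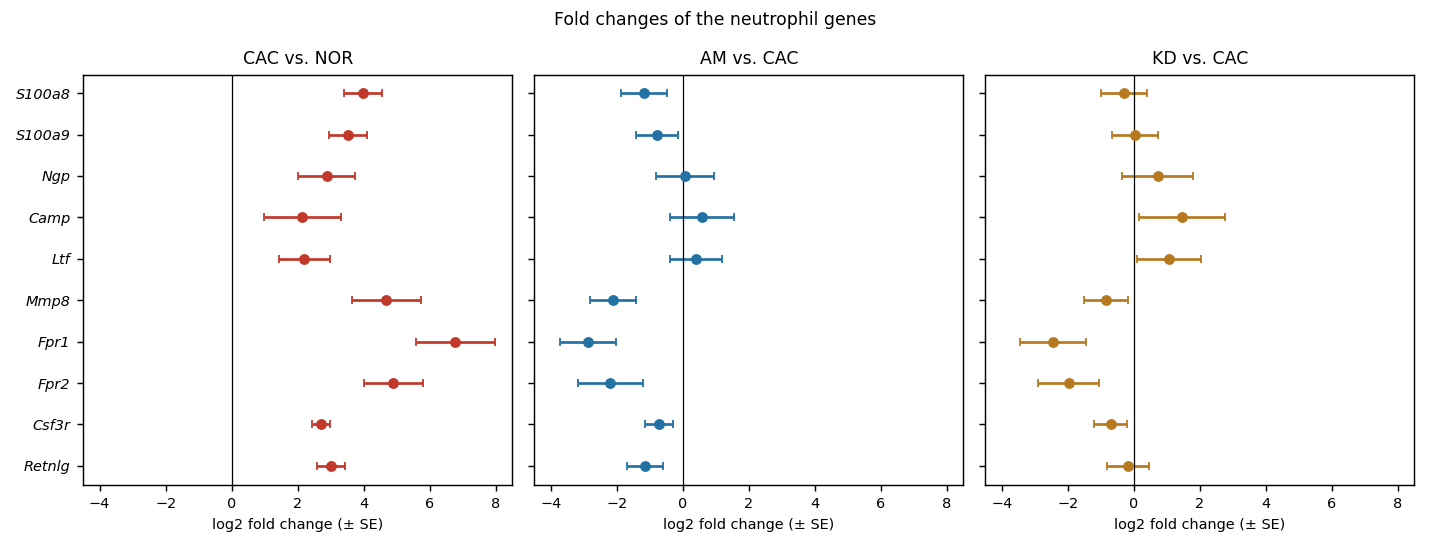
Log2 fold changes of the 10 genes with their SE for CAC against NOR, AM against CAC and KD against CAC, from 4 mice per group. All 10 lie above 0 in CAC vs. NOR, and against CAC the genes spread from −2.86 (Fpr1 in AM) to 1.47 (Camp in KD).

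AM vs. CAC asked whether the levels differed between tumor-bearing mice with and without amiloride. The CAC libraries of this comparison are also those of KD vs. CAC, and they had entered the choice of the genes. By edgeR's quasi-likelihood test with Benjamini-Hochberg adjustment, 0 of the 9 genes tested (all but Fpr1) passed in AM vs. CAC, where 2.03% of all genes were called lower and 1.63% higher in AM. Of the 9, Mmp8 alone had an unadjusted p below 0.05, where 21.7% of all genes had one, and it alone separated the groups, where 9.27% of all genes were lower in AM without overlap. Its log2 fold change was −2.10 ± 0.70 (SE; 95% interval −3.69 to −0.51) with an adjusted p of 0.123. The DESeq2 Wald test called Mmp8 (adjusted p = 0.0149) and limma-voom called none.

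Fpr2 (−2.19 ± 0.98, SE), S100a8 (−1.18 ± 0.70), Retnlg (−1.15 ± 0.55), S100a9 (−0.77 ± 0.63) and Csf3r (−0.72 ± 0.41) had negative log2 fold changes in AM vs. CAC, with edgeR adjusted p of 0.242 to 0.538. The Fpr2 value was −0.93 without CAC replicate 4. The 3 secondary granule genes had positive ones, at 0.07 ± 0.87 for Ngp, 0.39 ± 0.79 for Ltf and 0.58 ± 0.96 for Camp (adjusted p 0.787 to 0.974). Their 95% intervals were wide, from −1.91 to 2.05 for Ngp. All 3 were negative without AM replicate 3, at −0.99, −0.54 and −0.27.

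KD vs. CAC asked the same of tumors with the Rab27 knock-down. By edgeR, 0 of the 9 genes tested passed, where 0.00685% of all genes were called lower and 0 higher in KD. None of the 9 had an unadjusted p below 0.05, where 11.1% of all genes had one, and DESeq2 and limma-voom called none. The log2 fold changes ran from −1.97 ± 0.92 (SE) for Fpr2 to 1.47 ± 1.3 for Camp, with adjusted p of 0.476 to 0.995, and none of the 10 separated the groups, where 3.58% of all genes were lower and 3.71% higher in KD without overlap. Without CAC replicate 4 the Fpr2 value was −0.69, and the Camp value ran from 0.08 to 2.42 over the other fits and libraries left out. S100a9 stood at 0.04 with a 95% interval of −1.57 to 1.64. KD replicate 3 moved these values, and without it S100a8 went from −0.31 to 0.07 and Retnlg from −0.18 to 0.19.

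Against NOR mice, 0 of the 9 genes other than Fpr1 passed in AM and in KD by edgeR, where no gene of the whole table passed either (0% higher in both). The NOR libraries had entered the choice of the genes. All log2 fold changes of the 9 were positive, at 1.86 to 2.96 in AM (adjusted p 0.518 to 0.546 by edgeR) and 2.01 to 3.85 in KD (adjusted p of 0.999 by edgeR). Other fits and libraries left out moved them without a change of sign. Mmp8 ran from 2.20 to 4.00 in AM and 3.46 to 5.26 in KD, and Ngp from 1.88 to 3.71 and 2.91 to 4.34. The unadjusted p was below 0.05 for 8 of the 9 in AM and 8 of the 9 in KD, where it was for 9.19% and 3.54% of all genes. The genes moved together within groups and their NOR levels had entered the choice, so these counts are a description. Csf3r did not overlap with NOR in AM or in KD, where 2.29% of all genes in AM and 1.31% in KD were higher without overlap. Fpr1, given without a test, had a log2 difference of 3.92 from NOR in AM and was too low for the fit in KD vs. NOR.

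DESeq2 called Csf3r in AM vs. NOR and S100a8, Csf3r and Retnlg in KD vs. NOR, and limma-voom called none. Without AM replicate 4, edgeR called Csf3r in AM vs. NOR at a log2 fold change of 2.26 (adjusted p = 0.0179). AM vs. KD gave 0 of 10, where no gene of the table passed (0%), with log2 fold changes of −1.26 (Mmp8) to −0.02 (Csf3r), an adjusted p of 1 by edgeR and no unadjusted p below 0.05, where 1.11% of all genes had one. DESeq2 and limma-voom called none of the 10 there.

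No difference between the labelled strains passed. With the group as a term, 0 of the 10 genes differed between the 8 C57BL/6 and the 8 BALB/c libraries by edgeR (0% of all 15652 genes), with log2 differences of −1.26 to 0.44 and none with an unadjusted p below 0.05. Over all genes 1.77% had one. Whether the CAC vs. NOR difference depended on the labelled strain rests on 2 mice per cell. There 0 of the 9 genes other than Fpr1 passed, and Ltf alone had an unadjusted p below 0.05 (adjusted p = 0.957 by edgeR), where 4.87% of all genes had one.

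The genes also varied from mouse to mouse inside the groups, which the choice had not used. As deviations of log2 CPM from the group mean, S100a8 and S100a9 had a Pearson r of 0.979 over the 16 mice and a Spearman rho of 0.950. A two-sided exact permutation within groups gave p = 2.11e-05 for r and 2.41e-05 for rho, and 8.44e-05 and 0.000193 after Benjamini-Hochberg adjustment over the 8 relations computed. Ngp and Ltf reached r = 0.982 (rho 0.976, adjusted exact permutation p 8.44e-05 and 0.000225), and Ngp and Camp r = 0.948 (rho 0.935, adjusted exact permutation p 0.000133 and 0.000308). Each of these 3 relations kept an r above 0.92 without the 2 mice farthest from the median of the first gene, at 0.926, 0.983 and 0.924. With the labelled strain removed from the deviations as well, r was 0.980, 0.983 and 0.943 (p = 0.00781, 0.0156 and 0.0156, exact permutation). Without the 4 libraries that stand apart in Nnt, chosen after the data were seen, r was 0.986, 0.979 and 0.944 over 12 mice (p = 0.000579, 0.00116 and 0.00116, exact permutation).

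S100a8 was related to Ngp as well, with r = 0.908 and rho = 0.882 (adjusted exact permutation p 0.000133 and 0.000225), and r = 0.902 without the 2 farthest mice. Its relations with Fpr1 and Csf3r rested on those 2 mice, and that with Fpr2 was smaller without them. With Fpr1, r was 0.674 and rho 0.637 (adjusted exact permutation p 0.0109 and 0.0148), and r fell to 0.359 without them. With Fpr2, r was 0.870 and rho 0.788 (adjusted 0.00124 and 0.00288 by exact permutation), and r was 0.586 without them. With Csf3r, r was 0.804 and rho 0.571 (adjusted 0.0134 and 0.0661 by exact permutation), and r was 0.238 without them. With the labelled strain removed, r was 0.625 for Fpr1 (p = 0.0938, exact permutation), 0.882 for Fpr2 (p = 0.0703, exact permutation) and 0.882 for Csf3r (p = 0.0625, exact permutation). Without the 4 libraries that stand apart in Nnt, r was 0.725 for Fpr1 (p = 0.0799, exact permutation), 0.928 for Fpr2 (p = 0.0122, exact permutation) and 0.867 for Csf3r (p = 0.0434, exact permutation).

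**Figure D3:**
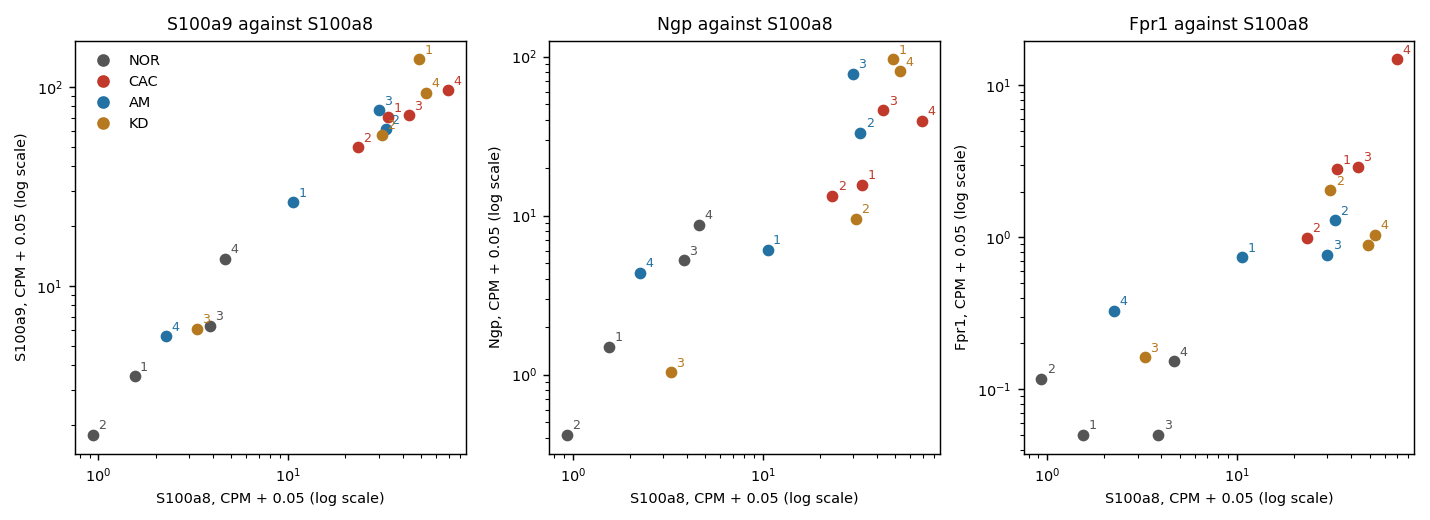
S100a9, Ngp and Fpr1 against S100a8 in each of the 16 mice, in CPM plus 0.05 on log axes. Point numbers are replicates and colours are groups. S100a9 follows S100a8 closely, Ngp spreads more, with AM replicate 3 and KD replicates 1 and 4 above the CAC mice of like S100a8, and Fpr1 is highest in CAC replicate 4.

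The ratios between the genes also differed between mice of one group. Per length, the ratio of Ngp to S100a8 in FPKM was 0.782 and 0.607 in KD replicates 1 and 4, and 0.121 in each of KD replicates 2 and 3. It ran from 0.185 to 0.422 in CAC and from 0.227 to 1.04 in AM. The ratio of Fpr1 to S100a8 had the opposite order among the KD mice, at 0.00629 and 0.00682 in replicates 1 and 4 and 0.0235 and 0.0119 in replicates 2 and 3. It was highest in CAC replicate 4, at 0.0781. All these ranges overlapped between groups.

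Among 15220 genes, those whose log2 CPM was most like Fpr1 over the 16 libraries were Stfa2l1 (r = 0.964), Ifitm6 (0.933), Lcn2 (0.929), Trem1 (0.928) and Ccni (0.925). For S100a8 they were Cd177 (r = 0.980), Chil1 (0.959), Lcn2 (0.945), Slfn4 (0.944) and Chil3 (0.943). The libraries share the difference between NOR and CAC, which these correlations contain.

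Of 27 further genes of the neutrophil, 24 passed the filter on low counts in CAC vs. NOR, and 15 of them were upregulated and 0 downregulated by edgeR, or 12 of 21 without the 3 that passed the filter through the CAC libraries only (Stfa2l1, Trem1 and Mrgpra2b), where 4.32% of all genes were called higher. The same 4.32% is the background of each list counted below in CAC vs. NOR, and the lists were chosen with earlier results of these data known. The median log2 fold change was 2.60 over the 24 and 2.22 over the 21, against 0.01 over all genes. Stfa2l1, a stefin, and Trem1, a receptor that amplifies inflammation, had no count in any NOR library. Against 3 counts over that group they were at least 131.9-fold and 55.5-fold higher in CAC, given without a test. Stfa2, another stefin without a count in NOR, was at least 133.8-fold higher in the mean of CAC, where it ran from 0 to 6.64 CPM, but too few libraries held it for a test. Mrgpra2b had a log2 fold change of 5.88 ± 1.10 (SE). Cd177, a surface protein of neutrophils, was upregulated with 4.41 ± 0.74 (SE, edgeR adjusted p = 0.00887). Without NOR replicate 3 the count of upregulated genes was 8. Ly6g, the defining surface marker of mouse neutrophils, was near 0, at 0.138 ± 0.159 CPM in NOR and 0.945 ± 0.717 CPM in CAC (SD, n = 4), and did not pass (edgeR adjusted p = 0.124).

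Against CAC, 0 of 25 of these genes passed in AM and 0 of 25 in KD by edgeR, with medians of −0.97 and −0.55. Over all genes, 2.03% were called lower and 1.63% higher in AM vs. CAC, and 0.00685% lower and 0% higher in KD vs. CAC. These shares are the background of each list counted below in the same 2 comparisons. A list of 5 other genes (Lcn2, Lrg1, Hp, Chil3 and Olfm4) held, among others, acute phase genes that neutrophils share. Of the 5, 3 were upregulated in CAC: Lcn2, which sequesters iron siderophores (log2 fold change 4.65), Chil3 (4.27) and Lrg1 (1.87), with edgeR adjusted p of 0.0141, 0.0207 and 0.0084. None of the 5 passed in AM vs. CAC or KD vs. CAC, beside the low shares of all genes given above.

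The primary granule genes Mpo (myeloperoxidase), Elane (neutrophil elastase), Prtn3 (proteinase 3) and Ctsg (cathepsin G), singled out after their values were seen, had another course. Their summed CPM was 74.8 in AM replicate 3, 59.1 in KD replicate 1, 28.5 in AM replicate 2, 16.2 in KD replicate 4 and 12.6 in CAC replicate 3, and 0.233 to 5.78 in the other 11 libraries. These 5 libraries and CAC replicate 4 were the 6 highest in Ngp. None of the 3 tested genes passed in CAC vs. NOR and none of the 4 in AM vs. CAC or KD vs. CAC by edgeR. Of all genes, 2.03% were called lower and 1.63% higher in AM vs. CAC, and 0.00685% lower and 0% higher in KD vs. CAC. The high libraries stood beside low ones of the same group. In AM vs. CAC the 4 log2 fold changes were all positive, from 1.77 (Elane) to 2.74 (Mpo), and without the 4 libraries that stand apart in Nnt they were 0.66 (Elane) to 1.55 (Ctsg). In KD vs. CAC they were 1.44 (Elane) to 2.24 (Mpo), and without those libraries −0.50 (Elane) to 0.25 (Ctsg).

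**Figure D4:**
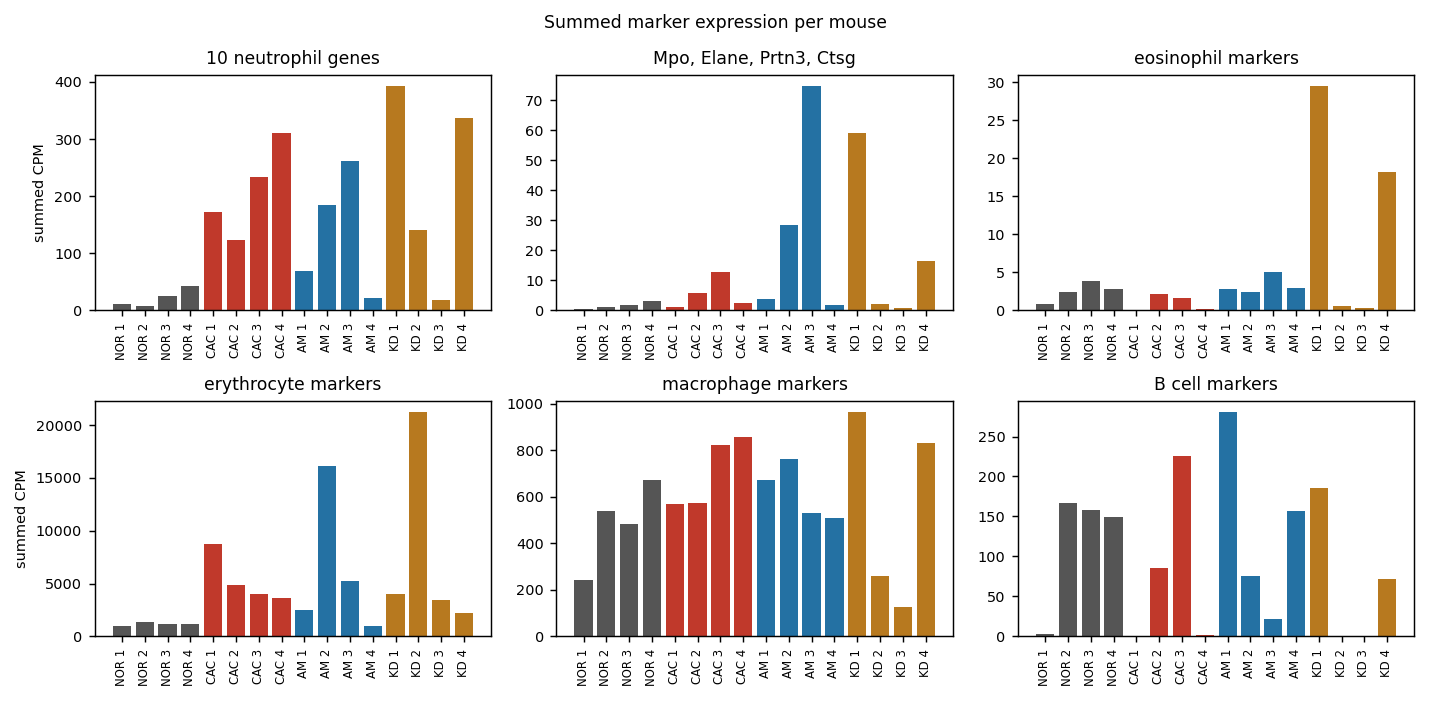
Summed CPM per mouse of the 10 neutrophil genes, the 4 primary granule genes, and markers of eosinophils, erythrocytes, macrophages and B cells. Bars start at 0. The neutrophil sum is 7.00 to 41.5 in NOR and 123 to 311 in CAC, and the primary granule sum is highest in AM replicate 3.

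Genes that bring neutrophils into tissue or act on the members were counted next. Of 17 recruitment genes, 12 were tested in CAC vs. NOR, and 5 were upregulated and 0 downregulated. They were Selp and Sele, the endothelial selectins on which neutrophils roll (log2 fold changes 2.78 ± 0.49 and 2.65 ± 0.64 (SE), edgeR adjusted p 0.0111 and 0.0295), the leukotriene B4 receptor Ltb4r1 (1.5), the integrin subunit Itgam (1.23) and the adhesion molecule Icam1 (1.16). Itgam was downregulated in AM vs. CAC (−1.13 ± 0.22 (SE), edgeR adjusted p = 0.0268), from 23.5 ± 6.65 to 10.7 ± 2.27 CPM (SD, n = 4 each), with no overlap. The call of Itgam in AM vs. CAC was lost without the 4 libraries that stand apart in Nnt, which left 2 AM and 3 CAC libraries, at a log2 fold change of −0.82 (edgeR adjusted p = 0.157). It was lost as well with the replicate number as a block, at −1.12 (edgeR adjusted p = 0.16), and no gene of the table passed in either fit. The chemokine genes Cxcl2, Cxcl3 and Cxcl5 were too low to test in CAC vs. NOR.

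Among 8 ligands, receptors and inhibitors of the members, 7 were tested in CAC vs. NOR and 2 were upregulated, or 1 of 6 without Saa3. Saa3, of the serum amyloid A family, which has ligands of Fpr2, went from 0.0707 ± 0.0628 to 16.5 ± 15.5 CPM (SD, n = 4 each; log2 fold change 7.76 ± 1.03 (SE)), and passed the filter through the CAC libraries only. Tlr4, a receptor for calprotectin, was 0.86 higher on the log2 scale (edgeR adjusted p = 0.0324). Saa3 read 0.296 ± 0.210 CPM in AM and 0.231 ± 0.231 CPM in KD, and was too low to test in AM vs. NOR and AM vs. KD. Its log2 differences from CAC, which rest on the CAC libraries in the same way and are given without a test, were −5.80 ± 0.90 and −6.14 ± 1.15 (SE). Csf3, the ligand of Csf3r, stood at 0.254 ± 0.416 CPM or below in every group and was too low to test between groups.

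Markers of other cells moved beside these genes. In CAC vs. NOR, 5 of 7 erythrocyte genes were upregulated, among them Alas2, the first enzyme of heme synthesis in red cells (log2 fold change 2.59, edgeR adjusted p = 0.00214), and their sum was 1003 to 1375 CPM in NOR and 3648 to 8722 CPM in CAC. In AM and KD it reached 16109 CPM in AM replicate 2 and 21227 CPM in KD replicate 2. Within groups, S100a8 and the erythrocyte sum had r = 0.417 and rho = 0.30 (exact permutation p 0.252 and 0.36), and r was −0.02 without the 2 farthest mice. The part of blood left in the muscle was not tested.

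Of 11 macrophage genes, 0 passed in CAC vs. NOR by edgeR, and their sum was 241 to 672 CPM in NOR and 571 to 859 CPM in CAC. Of 6 monocyte genes, 5 were tested and F10 alone was upregulated (log2 fold change 2.57, edgeR adjusted p = 0.0389). KD replicate 3 had the lowest sum of the 16 libraries for the macrophage genes (126 CPM) and the platelet genes (3.70 CPM). AM replicate 4 had the lowest macrophage sum of the AM mice, at 508 CPM, near AM replicate 3 (530 CPM) and inside the NOR range. Among the AM mice its monocyte sum (24.3 CPM) was the lowest and its mast cell sum (62.8 CPM) the highest. The eosinophil sum was 29.6 CPM in KD replicate 1 and 18.2 CPM in KD replicate 4 and at most 5.02 CPM elsewhere, so it was high in the KD mice in which Ngp was high. Other cell lists split the KD mice in the same way. In KD replicates 1 and 4 the sum was 66.2 and 75.6 CPM for mast cell genes, 965 and 830 CPM for macrophage genes and 186 and 72.2 CPM for B cell genes. In KD replicates 2 and 3 it was 6.58 and 6.51, 258 and 126, and 0.372 and 0.279 CPM. The defining eosinophil marker Siglecf was at most 0.807 CPM in all of them. The part of these cells in the levels of the neutrophil genes was not tested.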

How the data were processed

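Poly(A) RNA of gastrocnemius from 16 mice was sequenced, 4 per group. The deposited table holds raw counts per gene and FPKM values, which the authors made from the same libraries. The submitters' processing notes name fastp, Bowtie2, HISAT2 and StringTie 1.3.1 and the builds GRCm38 and mm9, without their roles. Counting settings are not given in the sources used here. FPKM served only for levels compared between genes. The paper's methods name NOISeq, which was replaced by edgeR 4.0.16 (R 4.3.3) with the same limits (FDR at most 0.05, fold change at least 1.5 or at most 0.667): TMM, filterByExpr (minimum count 10, total 15), quasi-likelihood F test, pairwise groups, no covariate. SE is the log2 fold change over the root of F. CPM uses TMM library sizes, and log2 CPM adds a prior count of 2. Intervals are 95%. Permutation tests are two-sided and exact. Fpr1 was left out of the tests against NOR after the data were seen, since the choice had used its NOR values. DESeq2 1.42.0, limma 3.58.1 (voom), other scalings and filters, the labelled strain, the replicate number and each library left out were alternatives. Scripts were tested on simulated counts. Totals of 35913190 to 61032708 counts set the precision, and intervals and floors of 3 counts cover counting error only.

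The 10 genes and all lists were chosen with earlier results of these data known. The rule named the 10 genes, at most 4 called genes per list and comparison with the largest changes, defining markers near 0, and the 5 genes most like Fpr1 and S100a8. Icam1, Csf3, the chemokines, the Mpo group and the genes most like Ngp were named after their values were seen. Nothing says that the mice of a group came from separate experiments, so p-values measure the spread between these libraries. Pairs of libraries of one group differed by more than sampling noise (chi-square per degree of freedom at least 66.6). Of the gene identifiers, 21905 matched GENCODE M21 and 18 did not. RefSeq promoters were matched by symbol for all 10 genes. Replicate numbers, which the labels give in each group, did not pair the mice: same-numbered deviations from the group means correlated at −0.67 to 0.63 over the comparisons.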

Additional observations from a re-analysis of the deposited data

Results flagged for a closer look

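The 10 genes were searched in each group of 4 for a mouse whose distance from the nearest other exceeded Dixon's limit for 4 values. Of 40 gene and group pairs, 4 passed. The limit passes about 1 in 20 groups of normally distributed values. The search used CPM without a log, which need not be normal, so that rate is no measure of chance here. The genes moved together and their CAC and NOR levels had entered the choice, so the pairs are not independent and the number is a description. Fpr1 read 14.7 CPM in CAC replicate 4 and 0.940 to 2.87 CPM in the other CAC mice. Fpr2 read 15.1 CPM in the same mouse and 1.63 to 3.31 CPM in the others, so the neighbouring formyl peptide receptor genes stood out together on the CPM scale. CAC replicate 4 also had the highest Nnt level, 112 CPM. Fpr2 read 0.0644 CPM in AM replicate 4 and 1.45 to 1.72 CPM in the other AM mice. Csf3r read 1.92 CPM in NOR replicate 1 and 2.41 to 2.46 CPM in the other NOR mice, a small distance in a narrow group.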

How the results depend on the processing

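Of 1440 alternative values, 1380 were counted as unchanged. For a tested gene or relation this meant the same direction and the same side of the threshold. No threshold was applied to the chosen genes in CAC vs. NOR or to Fpr1 against CAC or NOR. These values, and the counts of called genes, were judged by how far they moved. Ngp and Ltf in CAC vs. NOR thus counted as unchanged, although their adjusted p fell below the limit in an alternative fit. Calls changed with DESeq2, which called 1 gene in AM vs. CAC, 1 in AM vs. NOR and 3 in KD vs. NOR where edgeR called 0. Leaving out 1 library gave 8 to 15 of the further neutrophil genes in CAC vs. NOR (8 without NOR replicate 3) and 0 to 1 of the 9 genes tested in AM vs. NOR (1 without AM replicate 4). The relation of S100a8 with Fpr1 ran from r = 0.485 (without KD replicate 3, exact permutation p = 0.0555) to 0.762 over libraries left out, and was 0.725 without the 4 libraries that stand apart in Nnt (exact permutation p = 0.0799). With group and strain means removed it was 0.625, with 0.882 for Fpr2 and 0.882 for Csf3r, no longer past the threshold.

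Several uncalled log2 fold changes changed sign, among them values of up to 1.08 in size (Ltf in KD vs. CAC). With limma-voom, they were −0.66 for Ngp and −0.27 for Ltf in AM vs. CAC, −0.60 for S100a9, −0.60 for Ngp and −0.016 for Ltf in KD vs. CAC, and 0.10 for Camp, 0.078 for Csf3r and 0.016 for Fpr1 in AM vs. KD. With the replicate number as a block, they were −0.54 for Ngp and −0.19 for Ltf in AM vs. CAC, −0.42 for S100a9 and −0.054 for Ngp in KD vs. CAC, and 0.057 for Csf3r in AM vs. KD. With the labelled strain as a term, they were −0.024 for S100a9 in KD vs. CAC and 0.029 for Csf3r in AM vs. KD. Scaled to total counts, they were −0.050 for Ngp in AM vs. CAC and −8.86e-05 for S100a9 in KD vs. CAC. Without the 4 libraries that stand apart in Nnt, chosen after the data were seen, they were −0.45 for Ngp, −0.19 for Ltf and −0.052 for Camp in AM vs. CAC, −0.30 for S100a9 in KD vs. CAC and 0.13 for Csf3r in AM vs. KD. Leaving out 1 library gave −0.99 to 0.43 for Ngp, −0.54 to 0.83 for Ltf and −0.27 to 1.56 for Camp in AM vs. CAC. In KD vs. CAC it gave −0.62 to 0.068 for S100a8, −0.46 to 0.42 for S100a9 and −0.41 to 0.19 for Retnlg. In AM vs. KD it gave −1.70 to 0.0063 for Ngp, −0.81 to 0.17 for Fpr1, −0.60 to 0.18 for Fpr2 and −0.35 to 0.36 for Csf3r. The cause was not tested.

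The replicate block changed no call of the 10 genes where they were tested. Over the whole table, AM vs. CAC called 239 genes higher and 298 lower, and 0 and 0 with the block or without the 4 libraries that stand apart in Nnt. KD vs. CAC called 0 higher and 1 lower, and 237 and 103 with DESeq2. Fpr1 had 0 to 6 counts in the NOR libraries, so its differences from NOR rest on few reads there.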

Other observations

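The genes whose log2 CPM was most like Ngp over the 16 libraries were 4930438A08Rik (r = 0.927), Elane (0.902), Cd177 (0.888), Ccr1 (0.874) and Padi4 (0.872). Elane encodes the elastase of primary granules. B cell and T cell markers also split the libraries. The summed CPM of 4 B cell genes was 0.279 to 2.46 in NOR replicate 1, CAC replicates 1 and 4 and KD replicates 2 and 3, and 22.3 to 281 in the 11 other libraries. The T cell sum was 0.124 to 0.725 in the same 5 libraries and 10.7 to 103 in the others. These 5 libraries include the highest S100a8 level of all (69.3 CPM, CAC replicate 4) and low ones (1.5 CPM, NOR replicate 1, and 3.24 CPM, KD replicate 3). The 5 libraries with the highest primary granule sums (AM replicates 2 and 3, KD replicates 1 and 4 and CAC replicate 3) were all among the 11 others.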
